A study of Homo sapiens with 3 samples.

Results

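The ATP-binding cassette (ABC) genes were taken as all genes whose symbol is ABC followed by a letter from A to G and a number. Of 46 such genes in the RefSeq gene table, 40 were listed in at least 1 of the 3 libraries, among 16149 listed genes in all. The mRNA of 3 cultured hepatocellular carcinoma (HCC) cell lines was sequenced with 1 library each: a parental line and 2 of its subclones. Each is labelled HCCLM3, a human HCC line. The methods of the paper name the parent HCCLM3-R, a derivative with red fluorescent protein, and describe clones grown from single cells of its lung or lymph node metastases in nude mice. The labels call the parent poorly metastatic, whereas the paper calls it highly metastatic. The labels describe subclone 1 as more metastatic with a preference for the lung, and subclone 2 as reaching both the lung and the celiac lymph nodes. Each subclone is a single line, and the sources used here do not name which clone it was. The cells were grown in DMEM, with no treatment named, and the question was how expression differs among lines with different organ tropisms. TAP1, TAP2 and CFTR belong to the same superfamily but carry other symbols and were counted with the related genes below.

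ABC proteins bind and split ATP at a conserved cassette. Most of them span a membrane and use the energy to move lipids, sterols, bile salts, drugs, conjugates or peptides across it, whereas the E and F families have no membrane span and work on ribosomes and in translation. In the liver, several of them load bile at the canaliculus, the apical membrane that hepatocytes share, and others hand cholesterol to lipoproteins. The drug pumps P-glycoprotein (ABCB1), BCRP (ABCG2) and the MRP proteins (ABCC family) are known for efflux of anticancer drugs from tumour cells.

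The values are RPKM, read numbers corrected for gene length and sequencing depth, which lets levels be compared between genes. The read totals behind the RPKM were 4488825 in the parent against 4609696 in subclone 1 and 4725150 in subclone 2. These totals were recovered from the smallest steps between RPKM values and need not include all reads sequenced. Where 3 values stand in a row, they are those of the parent, subclone 1 and subclone 2 in that order. Whole reads were recovered for 39 of the 40 ABC genes, and the intervals given are 95% intervals of these reads. They cover counting error only, since no line had a replicate library and reads of the same molecule were not told apart. No difference between cell lines could be tested, and the comparisons are between libraries. Of the hepatocyte markers, ALB was at 2.46 RPKM in the parent against 49.5 in subclone 1 and 68.8 in subclone 2, TTR was not listed in the parent or subclone 1, and APOA1 and SERPINA1 stayed below 1 RPKM in each library. HNF4A was at 11.7, 11.9 and 16.0 RPKM, AFP at 2.41, 4.16 and 4.27, and APOB at 0.2997, 1.23 and 4.17. The 7 hepatocyte markers summed to 17.2, 67.8 and 94.2 RPKM from parent to subclone 2. The highest of them was HNF4A in the parent and ALB in both subclones. The 4 epithelial markers, led by KRT8 and KRT18, summed to 2569, 2725 and 2803 RPKM. CDH1 was at 2.08, 8.97 and 12.3 RPKM and EPCAM at 0.257, 0.125 and 0.367. The 6 fibroblast markers summed to 15.7, 31.1 and 24.3 RPKM, with PDGFRB not listed. Within them LUM was at 10.1, 24.0 and 21.0 RPKM and DCN at 0.773, 4.42 and 2.75, whereas COL3A1 was at 4.42, 2.21 and 0.463 RPKM and COL1A1 at 0.338, 0.403 and 0.0357. The 4 endothelial markers summed to 4.74, 11.8 and 7.56 RPKM, with CDH5 listed in subclone 1 alone. PECAM1 was at 3.33, 9.81 and 4.46 RPKM and KDR at 1.36, 1.93 and 3.08. CD3E was not listed, PTPRC was listed in the parent alone at 0.0836 RPKM, and CD68, which epithelial cells can also transcribe, was at 75.3, 112 and 99.6 RPKM. The part of these markers in the ABC values was not tested.

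Promoter sequence is shown for some of the ABC genes described below, so that their levels can be read beside it. Of the 46 genes, 35 had at least 1 promoter entry in RefSeq (GRCh38.p14), with 53 windows. ABCA4, ABCB4 and ABCG1 are among the 11 without an entry. Each sequence gives the 250 bases before an annotated start, 5′ to 3′ on the strand of the gene. Capitals mark a GC box (GGGCGG) or a CCAAT box (CCAAT) on either strand. The TATA box (TATAAA) and the E-box (CACGTG) were searched too and were not found in these 5 windows, and no 2 matches overlapped.
ABCB1, downstream start, minus strand, chr7:87600885-87601134: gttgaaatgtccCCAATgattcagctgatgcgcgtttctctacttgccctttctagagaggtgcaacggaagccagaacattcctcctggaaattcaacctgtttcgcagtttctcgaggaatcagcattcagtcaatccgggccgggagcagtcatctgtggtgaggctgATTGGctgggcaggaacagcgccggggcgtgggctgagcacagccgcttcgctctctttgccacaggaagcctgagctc
ABCB1, upstream start, minus strand, chr7:87713296-87713545: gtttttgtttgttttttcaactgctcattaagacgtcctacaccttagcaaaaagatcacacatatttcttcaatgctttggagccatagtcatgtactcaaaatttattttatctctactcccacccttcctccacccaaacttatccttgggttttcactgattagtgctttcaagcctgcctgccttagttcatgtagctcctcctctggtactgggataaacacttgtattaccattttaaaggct
ABCA7, plus strand, chr19:1039857-1040106: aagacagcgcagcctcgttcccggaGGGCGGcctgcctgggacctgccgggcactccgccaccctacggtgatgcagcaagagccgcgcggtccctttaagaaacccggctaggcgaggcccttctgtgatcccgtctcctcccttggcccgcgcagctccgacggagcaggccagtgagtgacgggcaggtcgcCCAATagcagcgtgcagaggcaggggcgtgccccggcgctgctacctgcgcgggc
ABCA6, minus strand, chr17:69141896-69142145: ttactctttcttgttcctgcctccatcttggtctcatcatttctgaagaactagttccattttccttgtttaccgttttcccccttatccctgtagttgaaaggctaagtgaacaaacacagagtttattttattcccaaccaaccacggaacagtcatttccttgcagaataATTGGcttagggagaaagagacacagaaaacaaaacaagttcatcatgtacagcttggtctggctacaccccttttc
ABCE1, plus strand, chr4:145098061-145098310: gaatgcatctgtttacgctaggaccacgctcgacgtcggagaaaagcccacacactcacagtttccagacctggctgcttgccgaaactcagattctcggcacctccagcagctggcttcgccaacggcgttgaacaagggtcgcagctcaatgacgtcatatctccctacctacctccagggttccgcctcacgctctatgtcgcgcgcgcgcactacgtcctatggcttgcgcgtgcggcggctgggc
The downstream start of ABCB1 had CCAAT matches that began 238 and 79 bases before it, the nearer of them on the opposite strand, and the upstream start had none of the 4 motifs. ABCA6 had a CCAAT match at 77 bases and ABCA7 at 55 bases, with a GC box at 225 bases in ABCA7. The window of ABCE1, the ABC gene with the highest mean level, had none. The windows of ABCC6, a gene called higher in subclone 2 below, are not shown and had none of the 4 motifs either. In all 35116 windows of this length, 42.6% held a GC box, 32.0% a CCAAT box, 10.7% a TATA box and 6.34% an E-box. In the 53 windows of ABC genes the shares were 47.2%, 20.8%, 11.3% and 17.0%, and windows of the same gene can overlap. The RPKM files do not say which start was used, and a match is only a run of letters.

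Of the 40 listed genes, 37 were listed in each of the 3 libraries. ABCA8, ABCA12, ABCC8, ABCC13, ABCG5 and ABCG8 were not listed in any. ABCG5 and ABCG8 form the sterol pump of the canaliculus, and ABCC8 is the sulfonylurea receptor of pancreatic beta cells. The summed level of the ABC genes was 621 RPKM in the parent against 569.9 in subclone 1 and 577 in subclone 2, or 0.150%, 0.137% and 0.138% of the RPKM of all genes. A mean of at least 1 RPKM over the 3 libraries was reached by 30 of them, and 13 were at 10 RPKM or more in every library. The 5 highest by mean level were ABCE1, ABCC2, ABCG2, ABCF2 and ABCC1.

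**Figure D1:**
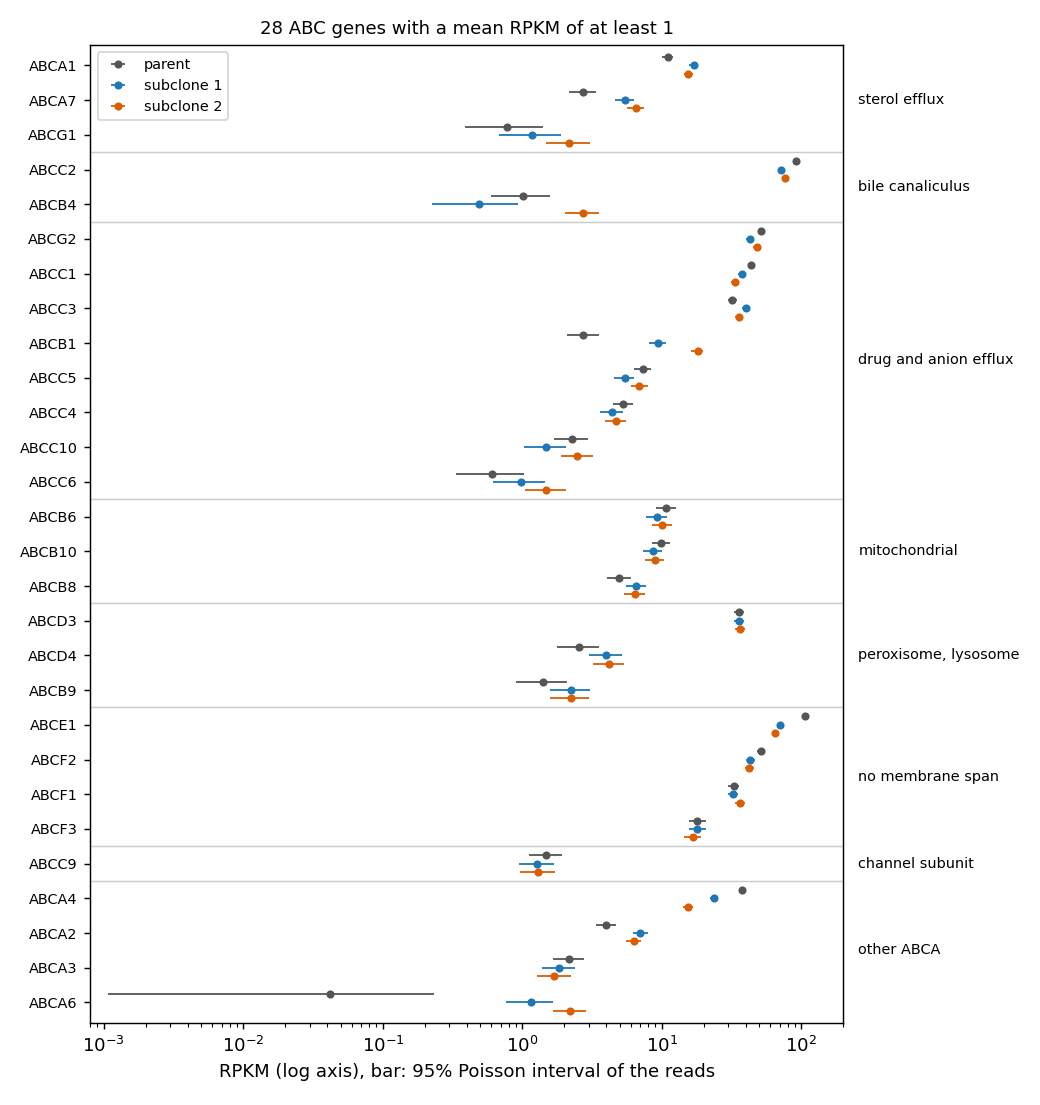
RPKM (log axis) of 28 of the 30 ABC genes with a mean of at least 1 RPKM, grouped by role, with 1 point per library (parent grey, subclone 1 blue, subclone 2 orange) and bars for the 95% Poisson interval. ABCE1 and ABCC2 lie highest, ABCB1 moves from 2.74 to 18.0 RPKM between parent and subclone 2, and ABCA6 starts from 1 read in the parent.

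Differences between libraries were expressed as the log2 ratio of RPKM plus a pseudocount of 0.1, and a gene was called at 2-fold among the genes with a mean of at least 1 RPKM. In subclone 1, 2 of the 30 ABC genes (ABCB1 and ABCA6) were at least 2-fold higher than in the parent, beside 4.9% of all 11370 genes, and none was at least 2-fold lower, beside 1.82%. With RPKM divided by ACTB, ABCB4 was also called lower in subclone 1, which made the split 2 higher and 1 lower. In subclone 2, 6 of the 30 were at least 2-fold higher than in the parent, beside 5.33% of all genes: ABCB1, ABCA6, ABCA7, ABCB4, ABCC6 and ABCG1. A single gene, ABCA4, was at least 2-fold lower in subclone 2, beside 2.16%. Of those 6, ABCA6 and ABCG1 were below 1 RPKM in the parent and reached the mean of 1 RPKM through the subclones, and ABCB4 and ABCC6 reached it through subclone 2, so that their presence among the 30 already leans to the higher side. Among the 19 ABC genes with a mean of at least 5 RPKM, ABCB1 was the single gene called higher in either subclone, beside 2.84% and 3.08% of the 8211 such genes. At 2.74 RPKM in the parent, ABCB1 passed that mean through the subclones, so that this call has the same lean. On the lower side there was none in subclone 1, beside 0.865%, and ABCA4 in subclone 2, beside 1.13%. None of the 19 was called between the subclones, where 0.524% of such genes were higher and 0.56% lower in subclone 2. Between the subclones, ABCB4 alone was at least 2-fold higher in subclone 2, beside 1.42% of all genes, and none was lower, beside 1.39%. Since ABCB4 reached the mean of 1 RPKM through subclone 2, this call leans to the higher side as well. At 1.5-fold, 9 of the 30 were higher in subclone 1 than in the parent, beside 11.6% of all genes, and 3 lower, beside 7.46%. In subclone 2 there were 10 higher, beside 12.7%, and 2 lower, beside 7.3%, with the same caution on the genes that passed through the subclones. Between the subclones 5 were higher in subclone 2, beside 4.75%, and 1 lower, beside 4.11%. Those higher were ABCB1, ABCB4, ABCG1, ABCA6 and ABCC10, of which ABCB4, ABCG1 and ABCA6 needed subclone 2 to reach the mean of 1 RPKM. Near the threshold of 2-fold on the parental comparisons were ABCA7 (log2 ratio 0.98) just outside it in subclone 1, and ABCC6 (1.16) and ABCA7 (1.23) just inside it in subclone 2.

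The median of the family lay near that of all genes. The median log2 ratio of the 30 genes over the parent was -0.096 in subclone 1, beside 0.0043 for all genes, with 13 above 0 and 17 below. In subclone 2 it was 0.072 beside 0.037, with 16 above 0 and 14 below. The subclones share the parent library, so that their ratios over it are not independent. The counting interval of the fold lay above 1 for 9 and below 1 for 7 of the 30 in subclone 1. The shares of the 11231 genes with recovered reads were 19.9% and 18.9%. In subclone 2 the interval lay above 1 for 11 and below 1 for 5 of the 30, beside 22.7% and 17.8%. Between the subclones 7 were higher and 4 lower in subclone 2, beside 11.5% and 8.43%. Such intervals are narrower for genes with more reads. Reads of genes outside the family may be understated, as given under the processing, so that these shares may be too low. Genes that passed the mean of 1 RPKM through the subclones lean these counts to the higher side too.

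**Figure D2:**
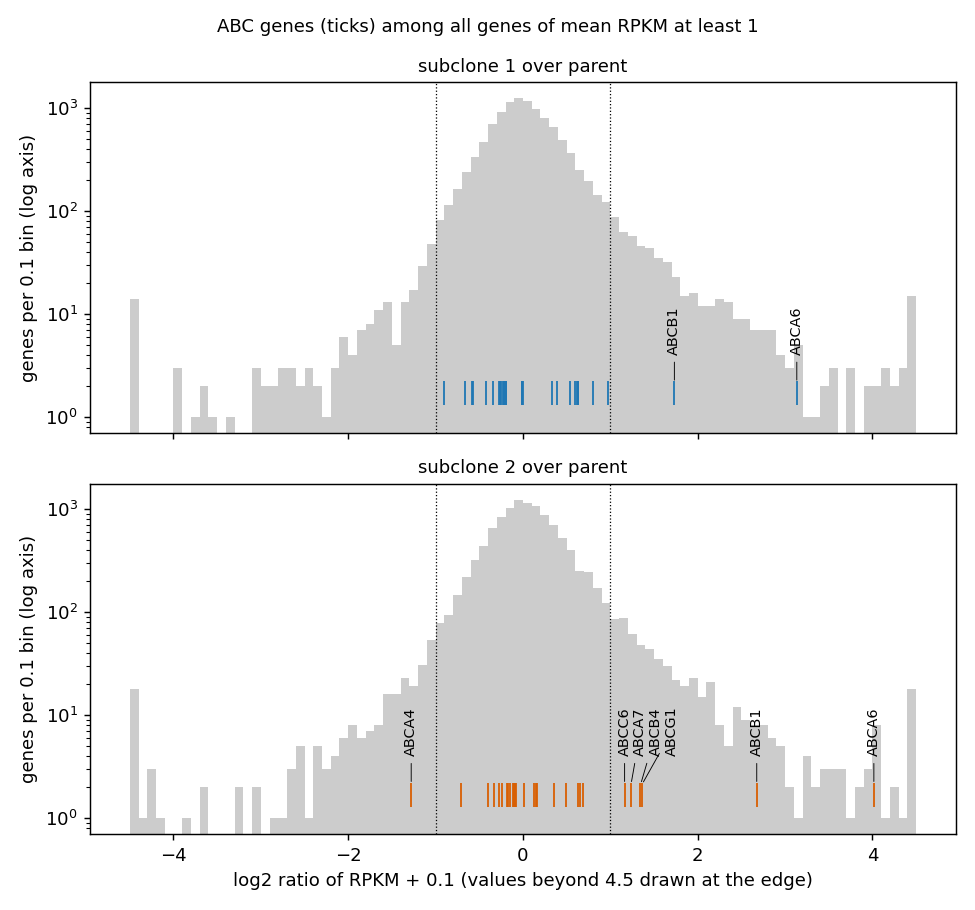
Number of genes (log axis) per 0.1 bin of log2 ratio of RPKM + 0.1 over the parent for the 11370 genes with a mean of at least 1 RPKM (grey), with 28 of the 30 ABC genes as ticks and dotted lines at 2-fold. In subclone 1 ABCB1 and ABCA6 lie beyond the lines, in subclone 2 also ABCA7, ABCB4, ABCC6 and ABCG1 on the higher and ABCA4 on the lower side.

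Among the pumps for drugs and organic anions, ABCB1 had the clearest difference. ABCB1 encodes P-glycoprotein, which expels many hydrophobic drugs, and lies on chromosome 7 beside ABCB4. It was at 2.74 RPKM in the parent (2.08 to 3.54, 58 reads) against 9.33 in subclone 1 (8.09 to 10.7, 203 reads) and 18.0 in subclone 2 (16.3 to 19.9, 402 reads). The intervals of the 3 libraries did not overlap, and the order was parent, subclone 1, subclone 2. The fold over the parent was 3.41 in subclone 1 (2.53 to 4.65) and 6.58 in subclone 2 (4.99 to 8.83), with log2 ratios of 1.73 and 2.68 at percentiles 98.4 and 99.3 of all genes. Subclone 2 exceeded subclone 1 by 1.93-fold (1.63 to 2.30). ABCB1 was 20th of the 40 ABC genes by level in the parent, 14th in subclone 1 and 11th in subclone 2. RUNDC3B, which overlaps ABCB1 in the RefSeq table, had at most 2 reads in any library. Whether reads were counted by strand is not given in the sources used here, so that reads of overlapping genes could not be told apart. Nor can bulk RNA tell more cells that transcribe a gene from more RNA per cell.

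ABCB1 was a small part of the drug and anion pumps. Its share of the summed RPKM of the 11 genes of this group was 1.87% in the parent against 6.56% in subclone 1 and 11.98% in subclone 2, while the sum itself was 146, 142 and 151 RPKM. ABCG2, the breast cancer resistance protein, was the highest of the group in each library, at 51.7 RPKM in the parent (48.6 to 54.9) against 42.9 in subclone 1 (40.1 to 45.8) and 47.8 in subclone 2 (44.9 to 50.9). Subclone 1 had 0.830 times the parental level (0.758 to 0.909), and for subclone 2 the fold of 0.926 had an interval that included 1 (0.848 to 1.01). ABCC1 (MRP1), which exports glutathione conjugates, was at 43.9 RPKM in the parent against 37.5 in subclone 1 and 33.2 in subclone 2. Its folds over the parent were 0.854 (0.788 to 0.926) and 0.756 (0.696 to 0.821), the opposite direction to ABCB1. ABCC3 (MRP3), a pump of the basolateral membrane of hepatocytes, was at 31.9, 40.1 and 35.6 RPKM, with folds of 1.26 (1.14 to 1.38) and 1.12 (1.01 to 1.23). ABCG2, ABCC1 and ABCC3 thus differed from the parent by less than 1.5-fold in either subclone.

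The other pumps of the group were below 10 RPKM in every library. ABCC5, an exporter of cyclic nucleotides and other anions, was at 7.31 RPKM in the parent against 5.41 in subclone 1 and 6.91 in subclone 2, with a fold of 0.740 in subclone 1 (0.593 to 0.923). Subclone 2 had 1.28 times the ABCC5 level of subclone 1 (1.02 to 1.59). ABCC4 (MRP4), of related function, was at 5.30, 4.38 and 4.67 RPKM, and both intervals over the parent included 1. ABCC10 was at 2.26, 1.48 and 2.48 RPKM, with intervals over the parent that likewise included 1 and a fold of 1.67 in subclone 2 over subclone 1 (1.08 to 2.61). ABCC6, mutated in a disorder of ectopic calcification, was at 0.609 RPKM in the parent (14 reads) against 0.974 in subclone 1 (23 reads) and 1.49 in subclone 2 (36 reads). Its fold was 2.44 in subclone 2 (1.29 to 4.90) and 1.60 in subclone 1, where the interval included 1 (0.789 to 3.36). ABCC6 is uncertain, because near-identical partial copies are in the genome: ABCC6P1 was at 0.407, 2.22 and 2.32 RPKM and ABCC6P2 at 0.303, 1.77 and 1.73 RPKM in the parent, subclone 1 and subclone 2. ABCB5, ABCC11 and ABCC12 had at most 5 reads in any library.

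**Figure D3:**
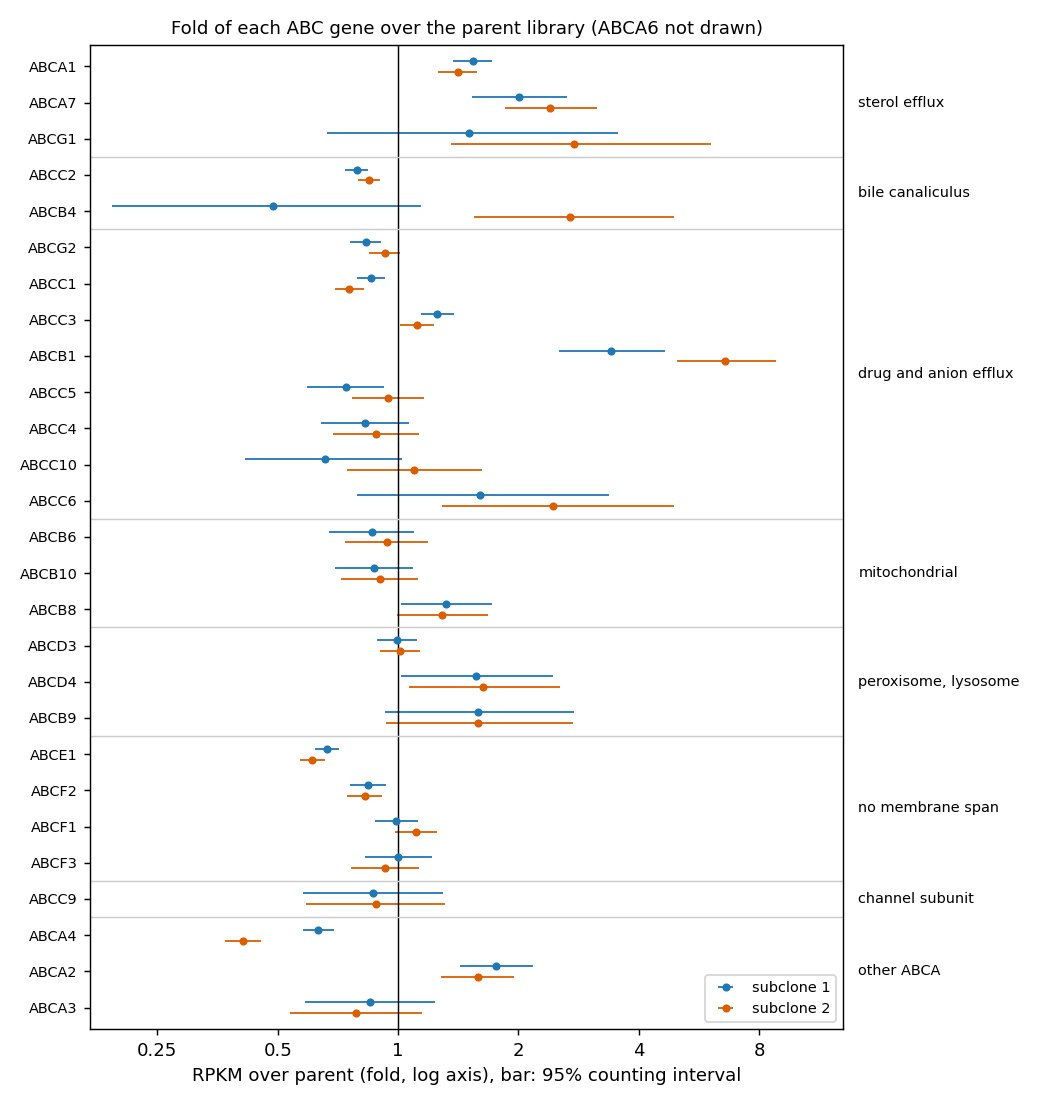
RPKM of each subclone over the parent (fold, log axis) for 27 of the 30 ABC genes, with 95% counting intervals, grouped by role. ABCB1 lies farthest to the right at 3.41 and 6.58, ABCA4 in subclone 2 farthest to the left at 0.410, and the intervals of ABCB6 and ABCB10 include 1. ABCA6 was not drawn because its interval is too wide.

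Of the genes of sterol and phospholipid efflux, ABCA1 and ABCA7 were higher in both subclones than in the parent, and ABCG1 in subclone 2. ABCA1, which loads cholesterol and phospholipid onto apolipoprotein A-I, was at 11.0 RPKM in the parent (10.1 to 11.98, 519 reads) against 16.9 in subclone 1 (15.8 to 18.1, 819 reads) and 15.5 in subclone 2 (14.4 to 16.6, 770 reads). The folds over the parent were 1.54 (1.37 to 1.72) and 1.41 (1.26 to 1.58), and between the subclones the interval of the fold included 1 (0.830 to 1.01). ABCA7, a close relative of ABCA1, was at 2.71 RPKM in the parent (2.16 to 3.35, 83 reads) against 5.43 in subclone 1 (4.65 to 6.31, 171 reads) and 6.50 in subclone 2 (5.65 to 7.44, 210 reads). The parent lay below both subclones, with folds of 2.01 (1.53 to 2.64) and 2.40 (1.86 to 3.14). With the pseudocount the log2 ratio in subclone 1 was 0.98, just short of a call. ABCG1, which passes sterol to high-density lipoprotein, was at 0.780 RPKM in the parent (11 reads) against 1.17 in subclone 1 (17 reads) and 2.16 in subclone 2 (32 reads). Its fold was 2.76 in subclone 2 (1.36 to 6.08), and in subclone 1 the fold of 1.505 had an interval that included 1 (0.665 to 3.55). ABCG4 was listed in subclone 1 alone, at 0.0560 RPKM. The group summed to 14.5 RPKM in the parent against 23.6 in subclone 1 and 24.2 in subclone 2, and ABCA1 made up 75.9%, 71.7% and 64.2% of it.

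Of the canalicular transporters, ABCC2 was abundant and the others were low or not listed. ABCC2 (MRP2), which excretes bilirubin glucuronide and other conjugates, was at 90.8 RPKM in the parent (86.9 to 94.8) against 71.6 in subclone 1 (68.2 to 75.1) and 76.7 in subclone 2 (73.2 to 80.3). It was the second of the ABC genes in the parent and the first in both subclones, and its folds over the parent were 0.788 (0.739 to 0.841) and 0.845 (0.793 to 0.900). ABCB4, which moves phosphatidylcholine into bile, was at 1.01 RPKM in the parent (0.596 to 1.59, 18 reads) against 0.490 in subclone 1 (0.224 to 0.929, 9 reads) and 2.71 in subclone 2 (2.02 to 3.56, 51 reads). Subclone 2 stood above the other libraries, with a fold of 2.69 over the parent (1.55 to 4.90) and 5.53 over subclone 1 (2.70 to 12.8), and subclone 1 could not be told from the parent at this depth (fold 0.487, 0.193 to 1.14). CROT, which overlaps ABCB4 in the RefSeq table, was at 2.67, 4.15 and 3.36 RPKM in the parent, subclone 1 and subclone 2, and reads that the 2 genes could share were not tested. ABCB11, the bile salt export pump, had 11 reads in the parent against 9 in subclone 1 and 13 in subclone 2, or 0.513, 0.409 and 0.576 RPKM.

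The transporters of peroxisomes and lysosomes ranged from abundant to nearly unlisted. ABCD3 (PMP70), which brings branched-chain acyl-CoA esters into peroxisomes, was at 35.9, 35.6 and 36.3 RPKM in the parent, subclone 1 and subclone 2. The intervals of its folds ran from 0.885 to 1.12 for subclone 1 over the parent, and from 0.902 to 1.14 for subclone 2. ABCD4, a lysosomal protein of vitamin B12 handling, was at 2.54, 3.99 and 4.16 RPKM, with folds of 1.57 (1.02 to 2.45) and 1.64 (1.07 to 2.54). ABCB9, a lysosomal peptide transporter, was at 1.40, 2.22 and 2.22 RPKM, with intervals that included 1. ABCD2, a peroxisomal transporter of fatty acids, was not listed in the parent, where 0 reads allow up to 0.125 RPKM, and had 2 reads in subclone 1 and 1 read in subclone 2.

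**Figure D4:**
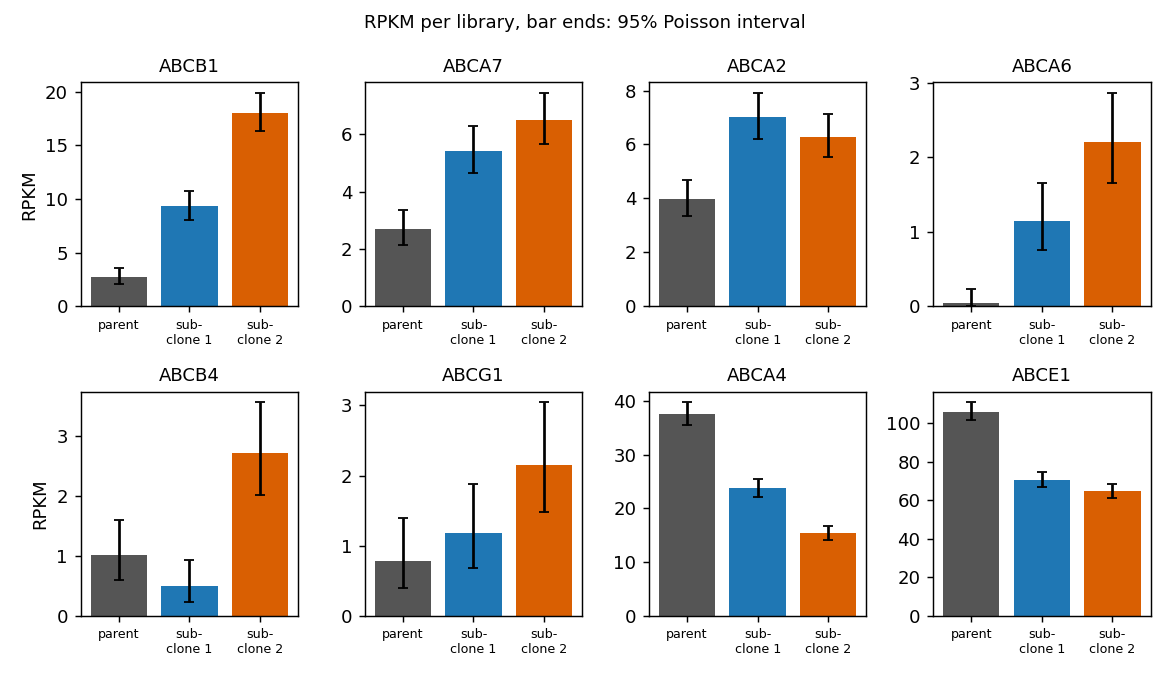
RPKM in each library (bars from 0, with the 95% Poisson interval) for 8 ABC genes named in the text. ABCB1, ABCA7, ABCA2 and ABCA6 are higher in both subclones than in the parent, ABCB4 is highest in subclone 2, and ABCA4 and ABCE1 are highest in the parent.

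The mitochondrial transporters ABCB6, ABCB8 and ABCB10 differed little from the parent. ABCB6 was at 10.7, 9.19 and 10.02 RPKM, and ABCB10, needed for haem synthesis, at 9.87, 8.60 and 8.88 RPKM. The intervals of their folds over the parent all included 1, with bounds between 0.672 and 1.19, so that smaller differences were not detectable at this depth. ABCB8 was at 4.95, 6.53 and 6.37 RPKM, with a fold of 1.32 in subclone 1 (1.02 to 1.72) and of 1.29 in subclone 2 (0.993 to 1.68).

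Of the proteins without a membrane span, ABCE1 was lower in both subclones. ABCE1 splits ribosomes after translation ends, so that the subunits can be used again. With 106 RPKM in the parent (102 to 111, 1999 reads) against 70.7 in subclone 1 (67.0 to 74.5, 1366 reads) and 64.9 in subclone 2 (61.4 to 68.5, 1286 reads), it was the highest ABC gene in the parent and the second in the subclones. The folds over the parent were 0.665 (0.621 to 0.713) and 0.611 (0.569 to 0.656), at percentiles 7.39 and 4.81 of all genes. Subclone 2 was slightly below subclone 1 (fold 0.918, 0.850 to 0.992), a direction that turned when RPKM were divided by ACTB. ANAPC10, which overlaps ABCE1 in the RefSeq table, was at 19.9, 22.1 and 14.1 RPKM. ABCF2 was at 51.2, 43.1 and 42.2 RPKM, with folds of 0.841 (0.760 to 0.932) and 0.825 (0.745 to 0.914). ABCF1, which acts in the initiation of translation, was at 32.6, 32.3 and 36.2 RPKM and ABCF3 at 18.0, 18.0 and 16.7 RPKM, all with intervals over the parent that included 1.

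ABCA4 was the single ABC gene called lower in subclone 2 than in the parent. ABCA4 is known as the retinoid and phosphatidylethanolamine flippase of photoreceptors, and in these HCC cells it was at 37.6 RPKM in the parent (35.5 to 39.7, 1236 reads) against 23.7 in subclone 1 (22.1 to 25.5, 802 reads) and 15.4 in subclone 2 (14.1 to 16.8, 534 reads). The intervals did not overlap, and the order was the reverse of that of ABCB1. The folds over the parent were 0.632 (0.577 to 0.691) and 0.410 (0.370 to 0.455), and subclone 2 had 0.650 times the level of subclone 1 (0.581 to 0.726). From the 6th place among the ABC genes in the parent it went to the 10th in subclone 1 and the 14th in subclone 2. ABCA2, which handles lipids in endosomes and lysosomes, was at 3.98 RPKM in the parent against 7.01 in subclone 1 and 6.29 in subclone 2, with folds of 1.76 (1.43 to 2.17) and 1.58 (1.28 to 1.95). ABCA3, the lipid transporter of lung surfactant, was at 2.15, 1.83 and 1.69 RPKM, with intervals that included 1. ABCC9, a regulatory subunit of ATP-sensitive potassium channels, was at 1.47, 1.28 and 1.30 RPKM, again with intervals that included 1.

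ABCA5, ABCA6, ABCA8, ABCA9 and ABCA10 are neighbours on chromosome 17, of which ABCA6 differed most between the libraries. ABCA6 had 1 read in the parent (0.0421 RPKM) against 28 in subclone 1 (1.15 RPKM, 0.762 to 1.66) and 55 in subclone 2 (2.20 RPKM, 1.66 to 2.86). The folds over the parent of 27.3 and 52.2 had intervals that began at 4.51 and 8.99 and ended at 1115 and 2101, because they rest on that 1 parental read, and subclone 2 exceeded subclone 1 by 1.92-fold (1.19 to 3.14). ABCA10 had 7, 10 and 21 reads and ABCA9 had 8, 6 and 9 reads in the parent, subclone 1 and subclone 2. ABCA5 was at 0.915, 1.03 and 0.641 RPKM, and ABCA8 was not listed. In the RefSeq table ABCA6 and ABCA9 overlap at their ends, as do ABCA5 and ABCA10. The 10 listed genes below a mean of 1 RPKM were ABCA5, ABCA9, ABCA10, ABCA13, ABCB5, ABCB11, ABCC11, ABCC12, ABCD2 and ABCG4, with at most 44 reads in any library where reads were recovered.

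Of 24 related genes, 19 were listed and 16 had a mean of at least 1 RPKM. Their read numbers may be understated, as given under the processing. In subclone 1, 3 of the 16 (NR1H4, SLCO2B1 and PDZK1) were at least 2-fold higher than in the parent, beside 4.9% of all genes. PDZK1 was below 1 RPKM in the parent and reached the mean of 1 RPKM through the subclones. In subclone 2 there were 2 (NR1H3 and NR1H4), beside 5.33%. None was at least 2-fold lower in subclone 1 or subclone 2, beside 1.82% and 2.16% of all genes. The 2 other ABC transporters listed were the peptide pumps of antigen presentation: TAP1 was at 4.42 RPKM in the parent against 5.91 in subclone 1 and 8.54 in subclone 2, and TAP2 at 5.77, 5.42 and 5.44 RPKM. CFTR was not listed. Among the nuclear receptors that control ABC genes in liver, NR1H4 (FXR, the bile acid receptor) was at 1.61 RPKM in the parent (9 reads) against 10.8 in subclone 1 (62 reads) and 9.34 in subclone 2 (55 reads), with folds of 6.71 (3.32 to 15.4) and 5.81 (2.85 to 13.4). NR1H3 (LXR-alpha, an oxysterol receptor) was at 9.33, 16.9 and 22.0 RPKM, with folds of 1.81 (1.35 to 2.45) and 2.36 (1.79 to 3.15), while NR1H2 (LXR-beta) was at 36.3, 37.2 and 39.4 RPKM. RXRA, the partner of these receptors, was at 20.8, 30.5 and 28.1 RPKM, and NR1I2 (PXR, the drug sensor) at 0.852, 1.02 and 1.38 RPKM. NR1I3 and NR0B2 were not listed. The LXR targets outside the family were SREBF1, at 20.1, 27.1 and 35.0 RPKM, and MYLIP, at 2.53, 3.44 and 2.88 RPKM.

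Of the 4 uptake carriers of hepatocytes, SLCO2B1 alone was listed in every library. SLC10A1 was not listed in any library, and SLCO1B1 and SLCO1B3 were each listed in 1 library below 0.1 RPKM. SLCO2B1 was at 6.74 RPKM in the parent against 18.2 in subclone 1 and 9.46 in subclone 2, with a fold of 2.70 in subclone 1 (1.90 to 3.90). RDX, the radixin that anchors ABCC2 at the canaliculus, was at 60.2, 89.9 and 67.2 RPKM. PDZK1, a scaffold for apical transporters, was at 0.871, 1.89 and 1.66 RPKM, with 9, 20 and 18 reads and a fold of 2.16 in subclone 1 whose interval included 1 (0.942 to 5.40). PEX19 and PEX3, which place ABCD proteins in the peroxisome membrane, were at 20.4, 24.1 and 23.0 RPKM and at 8.27, 9.70 and 6.94 RPKM. PELO and HBS1L, which act with ABCE1 on stalled ribosomes, were at 11.0, 10.8 and 9.79 RPKM and at 6.72, 6.60 and 6.94 RPKM, and KCNJ11, a channel pore that pairs with sulfonylurea receptors, had at most 6 reads, with KCNJ8 not listed.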

How the data were processed

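The authors deposited RPKM values per gene (Entrez number and symbol) for each of 3 libraries, made from Trizol RNA with a TruSeq kit, and listed genes above 0. The submitters' processing notes name the build hg19; the aligner, counter, annotation and strand handling are not given in the sources used here. Absent genes were given 0. Library totals came from ratios of genes with equal reads (506 and 489) and from the common step of 2110 low genes, 88.2% of which fell on it. Each gene then took the smallest length that made its listed RPKM whole reads and suited its GENCODE transcripts. For ABC genes a length within 10% of a transcript matched to RefSeq was preferred, a choice made after the values were seen. Genes outside the family, related genes and markers among them, did not have this preference. Their reads may be too few and their intervals too wide. Resolved genes held 95.8% of the total in each library, and reads with a shared divisor can be understated. Log2 ratios used RPKM + 0.1, and genes were called at 2-fold from a mean RPKM of 1 upward. Intervals at 95% are exact Poisson for RPKM and Clopper-Pearson for folds, which are ratios of RPKM without pseudocount. The reads functions were run on simulated libraries built from the lengths and reads already recovered. Such a run cannot show that these are right for the real genes. With 1 library per group no test was run. Any ABC gene could be named; values in every library were to be given for those of mean RPKM at least 1 that differed 1.5-fold, the 5 highest, and the sterol, canalicular and efflux genes. Members and lists were chosen with earlier results of these data known. The alternatives were pseudocounts of 0.01 and 1, median centring, the upper quartile, ACTB, no filter, a mean of at least 5 and 1.5-fold. CROT, ANAPC10, RUNDC3B, ABCC6P1 and ABCC6P2 were added after values were seen. Python 3.11.15, numpy 2.4.6, pandas 2.3.3, scipy 1.17.1 and matplotlib 3.10.9 were used. A few genes of the family enter the counts and sums but are not reported here singly.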

Additional observations from a re-analysis of the deposited data

Results flagged for a closer look

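The log2 ratio of ABCB4 over the parent had opposite signs in the subclones. It was -0.91 for subclone 1 and 1.34 for subclone 2, from 18 parental reads against 9 and 51. The difference was not tested between cell lines, since each has 1 library. The counting interval of the fold in subclone 1 included 1 (0.193 to 1.14), so that subclone 1 could not be told from the parent. ABCB4 reached the mean of 1 RPKM through subclone 2, which leans it to the higher side there.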

How the results depend on the processing

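Median centring and the upper quartile left all 6 counts of called ABC genes as they were. With a pseudocount of 0.01, 1 gene (ABCB4) was lower in subclone 1 than in the parent instead of 0 and 3 were higher instead of 2, with ABCA7 added. With a pseudocount of 1, the genes higher in subclone 2 than in the parent went from 6 to 3 (ABCB1, ABCA6 and ABCA7). Division by ACTB, which put the median of all genes at -0.13 in subclone 1 over the parent and at 0.16 in subclone 2 over subclone 1, gave 1 gene lower in subclone 1 (ABCB4) and 2 higher in subclone 2 than in subclone 1 (ABCB1 and ABCB4). It also turned the log2 ratio of ABCE1 in subclone 2 over subclone 1 to 0.0026. With no filter, 1 gene (ABCB5) was lower in subclone 1, and 7 instead of 6 were higher in subclone 2, with ABCA10 added. With a mean of at least 5 RPKM, 1 gene was higher in each subclone than in the parent (ABCB1) and 0 in subclone 2 over subclone 1. ABCB1 reached that mean through the subclones. At 1.5-fold, 9 genes were higher and 3 lower in subclone 1, beside 11.6% and 7.46% of all genes. In subclone 2 there were 10 and 2, beside 12.7% and 7.3%. Subclone 2 over subclone 1 gave 5 and 1, beside 4.75% and 4.11%, with the caution on the filter given above. These shifts follow from the construction of the alternatives. ACTB itself was at 3189, 3496 and 3205 RPKM, so that division by it lowers subclone 1 against the other libraries. Why ACTB differed was not tested. Of 450 single log2 ratios under the 5 alternatives that apply to them, 440 stayed within their counting interval. Median centring, the upper quartile and a pseudocount of 0.01 move ratios little or towards the plain fold, so that this says little. Division by ACTB moved 6 ratios outside (of ABCC1, ABCC2, ABCE1 and ABCG2) and reversed 1 (ABCE1). A pseudocount of 1 moved 3 (of ABCA6 and ABCB4). No paired analysis was possible because the lines have 1 library each, so that none could be left out in turn. Depth limits genes with few reads most, as the 1 parental read of ABCA6 shows.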
